A study of Sus scrofa with 20 samples.

Results

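The comparison described here set late fetal against early fetal longissimus muscle of the pig within 2 breeds. It used 8 of the 20 libraries of the series, chosen by the stage and breed given in their labels. The 4 early libraries were 1 of Landrace (LR) and 1 of Lantang (LT) at each of 49 and 63 days post coitus (dpc), and the 4 late libraries were the same breeds at 77 and 91 dpc. LR is the lean breed of the study and LT the obese breed, and the labels name no treatment and no engineered allele. Each library was made from equal amounts of RNA of 3 male fetuses, taken from 2 sows per breed and stage, so a breed at a stage was measured once and had no replicate. The stages and breeds of a period therefore stood in for replicates. The p-values for the difference between periods, and for its difference between breeds, measure the spread between pools that also differ in age. For steps between adjacent ages, the spread is that between LR and LT at the same age, with breed as block. A trend over age takes linear age out of the spread, and permutation p-values come from exchanging the period labels within breed. The question was which transcripts, seen as sequence tags, differ between the earlier and the later of these fetal ages in both breeds.

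Skeletal muscle of a mammalian fetus forms in waves. Primary fibres arise first by fusion of embryonic myoblasts, and secondary fibres then form around them from fetal myoblasts and come to outnumber them. As fibres mature, embryonic and fetal forms of the contractile proteins give way to later forms, mitochondria and glycolytic enzymes accumulate, and proliferating cells become a smaller share of the tissue.

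RNA was counted by digital gene expression tags. A tag is the NlaIII site CATG and the 17 bases that follow it, ideally at the last such site before the poly(A) tail. The study mapped many tags to more than 1 gene and placed some at an earlier site. A tag therefore need not stand for 1 transcript, and 1 transcript can give several tags. Tags were not matched to genes here, because the reference used held no transcript or genome sequence, and each tag is therefore given by its sequence and a short name. For the same reason, the muscle origin of the libraries could not be checked against marker genes and no cell type is named. Levels are in TPM, copies of the tag per 1000000 clean tags of the library.

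The following 12 tags had the smallest p in each direction for the difference between periods, 6 higher late (L1 to L6) and 6 higher early (E1 to E6). They are shown because no gene name identifies them. All tags are written 5′ to 3′ and capitals mark the NlaIII site CATG and the polyadenylation signal motif AATAAA.
L1: CATGcgcgccacgaggagcgc
L2: CATGagcgctgcagacaggat
L3: CATGggcaacgaatactattt
L4: CATGtggaggtgCATGcgcgc
L5: CATGtagagaaagaaaatgag
L6: CATGttgtcctgaccatcccc
E1: CATGttgtccagagaggcata
E2: CATGacggaattctggtggtg
E3: CATGatggatctgAATAAAag
E4: CATGtatggcattgagaatga
E5: CATGgattgctatggtgctgt
E6: CATGggtgatgcggacaccag

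The 8 libraries held 2615631 to 5322022 clean tags, the smallest being LT at 63 dpc, and 3 counts, taken as the smallest detectable amount, were worth 0.564 to 1.15 TPM. Tags seen once had been removed, so a tag listed at 0 may have had 1 copy. Of 528472 distinct tags in these libraries, 60861 passed the filter on low counts. LT at 63 dpc also had the lowest share of its tags in sequences of over 100 copies, 47.9% against 56.2 to 65.6% in the other 7, and the highest share in tags 1 base away from a more abundant tag, 4.89% against 3.98 to 4.63%.

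Among tags whose late and early libraries separated within each breed, those with the same direction in LR and LT outnumbered those with opposite directions, and those higher late outnumbered those higher early. No tag of the 60861 tested reached an adjusted p below 0.05 with breed as a block, a share called of 0.0% by edgeR's quasi-likelihood test with Benjamini-Hochberg adjustment. The smallest adjusted p was 0.0931, and 6837 tags (11.2%) had an unadjusted p below 0.05, of which 3710 were higher late. Without LT at 77 dpc, edgeR called 3 tags. DESeq2 with the same design called 862 of the 36082 tags it gave an adjusted p, or 2.39%, 570 of them higher late and 292 higher early. A linear trend over the 4 ages, added after seeing the data and tested by edgeR, called 962 tags (1.58%), 626 higher with age and 336 lower. Whether tags passed therefore depended on the test. The values of L1 to L11 and E1 to E12 below are descriptions, since these tags were picked by their p and level after the values were seen. In pooled tissue, fewer cells of a type and less RNA per cell cannot be told apart.

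Counted without a test, 4081 tags (6.71% of those tested) had both late libraries above both early ones in LR and again in LT, and 3013 (4.95%) had both below. Opposite directions were seen in 798 tags (1.31%) above in LR and below in LT and in 908 (1.49%) the reverse. Within LR alone 18.6% of tags were above and 20.1% below, and within LT alone 18.6% and 16.9%. Across all 8 libraries, 1028 tags (1.69%) had every late library above every early one and 653 (1.07%) had every late library below. The share separated within both breeds was higher among abundant tags. It held for 3.92% of tags in the higher direction and 2.50% in the lower at a mean under 2 TPM, and for 17.4% and 7.07% of the 184 tags at 500 TPM or more with 1.09% in opposite directions. Leaving out 1 library makes the rule easier to meet in its breed. The counts higher, lower and opposite all rose whichever library was left out. Without LT at 63 dpc, which leaves 1 early LT library, 5935 tags were higher late in both breeds, 5828 lower and 6220 opposite. With all 8 libraries, 1706 were opposite. How far the counts lean on single libraries cannot be read from this, because the rule changed with the library.

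The steepest of the late tags was L3. In LR it stood at 0.448, 1.49, 26.0 and 105 TPM at 49, 63, 77 and 91 dpc, and in LT at 1.77, 3.06, 22.2 and 108 TPM. Every late library was above every early one, and the 91 dpc value was the highest of its breed. The means were 1.69 ± 1.07 TPM early and 65.3 ± 47.6 TPM late (SD, n = 4 each), a 38.6-fold difference, with an edgeR log2 fold change of 5.38 ± 0.70 (SE) and an adjusted p of 0.0931. DESeq2 gave 1.4e-12 and the trend over age 0.00126 as adjusted p.

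L1 and L4 had sequences that meet. L4 holds a further CATG, and its last 9 bases are the first 9 of L1, so that placed end over end they span 33 bases. L4 stood at 11.4, 23.2, 72.8 and 101 TPM over the 4 ages in LR and at 13.6, 26.4, 93.4 and 159.9 TPM in LT. L1 stood at 12.8, 20.2, 59.6 and 89.0 TPM in LR and at 7.68, 6.50, 37.4 and 72.2 TPM in LT. Both were 5.73- and 5.48-fold higher late on average, in that order, and neither had any overlap between periods. Whether the pair came from one transcript was not tested, and if it did their values are not independent.

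L2 and L6 were lower in level and followed the same order of periods. L2 was near the detectable amount in early LR, with 0.448, 0.425, 4.33 and 7.83 TPM over the 4 ages, and stood at 3.74, 3.44, 17.5 and 37.0 TPM in LT. L6 ran through 2.69, 4.25, 13.3 and 20.2 TPM in LR and 5.71, 5.35, 18.8 and 29.9 TPM in LT, 4.56-fold higher late on average. For L2 the late LR values, 4.33 and 7.83 TPM, lay close above the early LT values of 3.74 and 3.44 TPM, so the breeds differed in level as well as the periods. L5 was the exception among the 6, with overlap between the groups: LR had 1.34, 4.46, 36.3 and 101 TPM and LT had 0, 0, 7.91 and 3.01 TPM. Its tag held 57.6% of the counts of all tags within 1 base of it, against at least 95.5% for the other 5. Merged with those tags, L5 had 8, 23, 187 and 512 counts in LR and 2, 2, 47 and 326 in LT, and its periods no longer overlapped.

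Of the early tags, E3 was found in all 4 early libraries and listed at 0 in all 4 late ones. It had 27.5 and 14.2 TPM at 49 and 63 dpc in LR and 50.4 and 9.56 TPM in LT, from 123, 67, 256 and 25 counts in that order. Against the detectable amount in the late libraries this was at least 37.3-fold higher early. E3 carries AATAAA in its last 8 bases, and the edgeR adjusted p was 0.0931, with 5.34e-11 by DESeq2.

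E1 was lower at each age than at the one before in both breeds. It had 56.4, 39.5, 4.06 and 1.90 TPM in LR and 60.6, 21.03, 7.27 and 2.25 TPM in LT, 11.5-fold higher early on average, with an edgeR log2 fold change of -3.55 ± 0.49 (SE) and an adjusted p of 0.0931. E2 had 42.6, 30.8, 12.7 and 11.4 TPM in LR and 28.0, 24.1, 7.06 and 6.20 TPM in LT, 3.36-fold higher early. In E2 most of the difference lay between 63 and 77 dpc, with values on either side of that step close to each other in both breeds.

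E4, E5 and E6 were lower late within each breed, at unequal levels. E4 was higher in LT than in LR at every age, with 80.7, 79.5, 29.3 and 14.7 TPM in LT and 12.1, 14.0, 4.33 and 3.09 TPM in LR, so that both late LT values lay above the early LR ones. E6 had 15.9, 14.0, 3.52 and 3.09 TPM in LR and 30.1, 26.0, 10.05 and 10.7 TPM in LT, with no overlap between its periods. E5 was scarce, at 4.93, 4.46, 1.08 and 0.475 TPM in LR and 8.27, 4.97, 1.07 and 0.752 TPM in LT, and its late values rest on 2 to 5 counts per library. The edgeR adjusted p was 0.109 for each of these 3 tags, with fold changes of 3.63, 6.70 and 3.14 towards early muscle.

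**Figure D1:**
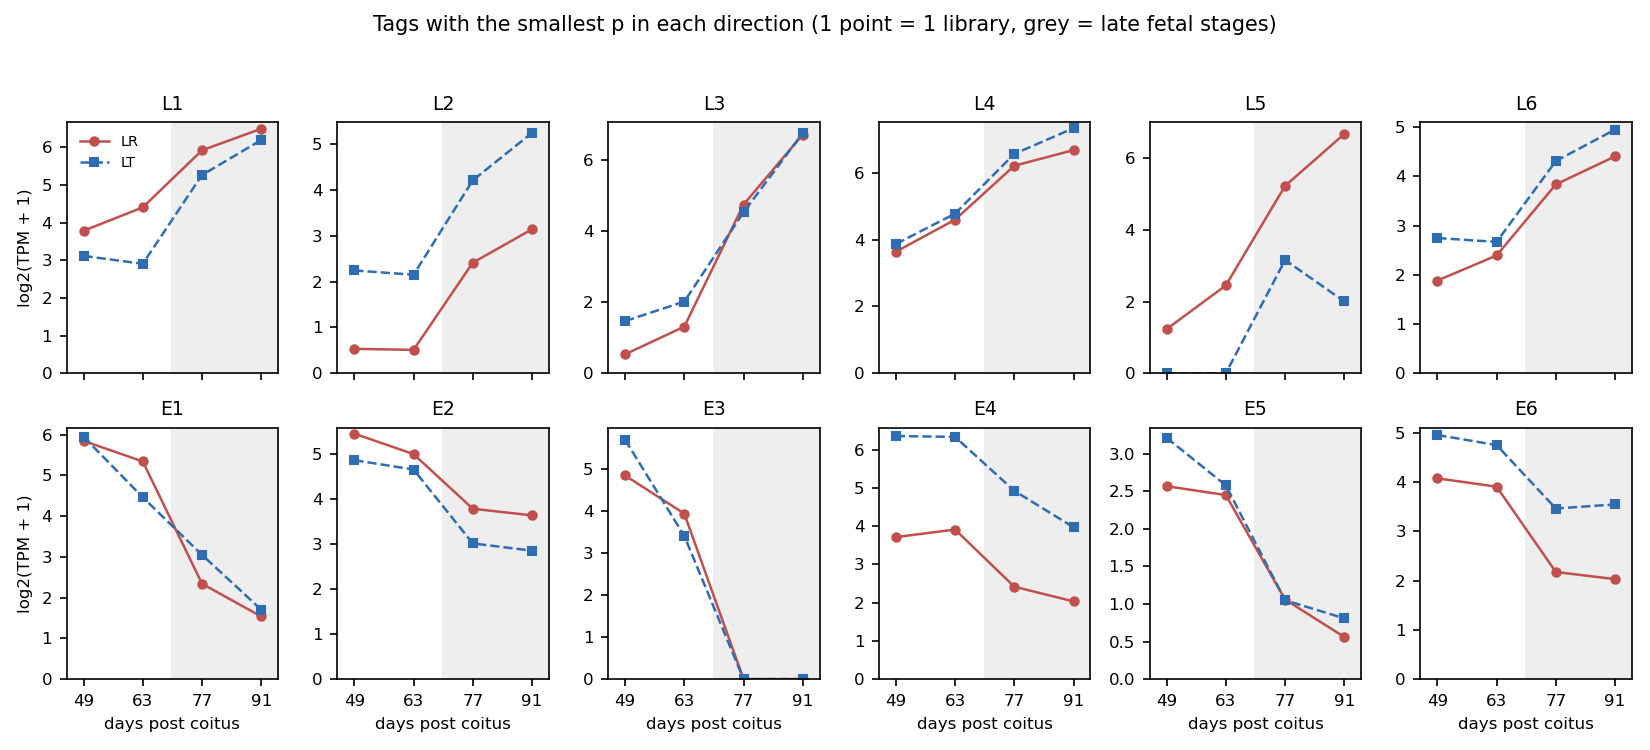
Levels of tags L1 to L6 (upper row) and E1 to E6 (lower row) as log2(TPM + 1) against age in days post coitus, 1 point per library, LR as circles and LT as squares, with the late ages shaded. In each panel the 2 late values of a breed lie on one side of its 2 early values, and E3 is listed at 0 in all 4 late libraries.

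The most abundant tags with an unadjusted p below 0.05 differed by less on the fold scale and by far more in copies. They are printed because they were among the most plentiful tags at that p, 5 higher late (L7 to L11) and 6 higher early (E7 to E12), followed by P1, a tag close in sequence to L10.
L7: CATGtaccatcAATAAAgtac
L8: CATGaaggatgaggaaaagat
L9: CATGgagggccgcaagaagat
L10: CATGaagatcaagatcatcgc
L11: CATGtgAATAAAgttgtcaac
E7: CATGagacagacagttgctgt
E8: CATGttcaAATAAAcaggagg
E9: CATGcAATAAAccttgtcttc
E10: CATGagggaaattgtgggttt
E11: CATGtttgtgttgtatattta
E12: CATGggcaatcccaaggtgaa
P1: CATGaagatcaagattattgc

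Together the 5 tags L7 to L11 made up 0.833, 1.48, 2.47 and 2.28% of all clean tags of LR at 49, 63, 77 and 91 dpc, and 0.473, 0.725, 1.04 and 1.46% of those of LT. The 6 tags E7 to E12 made up 1.92, 1.46, 1.02 and 0.797% in LR and 0.884, 0.976, 0.609 and 0.388% in LT. In both breeds the late ages held the higher share of the first group and the lower share of the second. AATAAA was found in 5 of the 23 tags L1 to L11 and E1 to E12, against 1.67% of all tags tested. Of these, 2 were among L7 to L11 and 2 among E7 to E12, which were picked for abundance. All tags tested had a median level of 4.17 TPM, so the 2 shares are not matched for level.

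L11, which holds AATAAA, had the largest fold of L7 to L11. It stood at 758, 2296, 4607 and 3851 TPM in LR and 510.4, 657, 1388 and 2327 TPM in LT, with means of 1055 ± 833 TPM early and 3043 ± 1455 TPM late (SD, n = 4 each), and the edgeR adjusted p was 0.148. Its groups overlapped across breeds, since LR at 63 dpc was above LT at 77 dpc, and did not overlap within either breed. L7 was the one tag among L7 to L11 and E7 to E12 whose 4 late values were all above its 4 early ones, at 1615, 3311, 4834 and 3904 TPM in LR and 1798, 2240.0, 3495 and 4632 TPM in LT, a mean difference of 1.88-fold.

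L10 stood apart by breed. It had 1625, 2563, 4441 and 6343 TPM in LR and 297, 959, 1275 and 1677 TPM in LT, 2.52-fold higher late on average with an edgeR adjusted p of 0.212, and LT at 77 dpc lay below, and LT at 91 dpc just above, LR at 49 dpc. P1 differs from L10 by 2 bases, C16T and C19T, counted from 1 at the 5′ end with the base of L10 first. For P1 the same comparison gave 6225, 5421, 7096 and 5246 TPM in LR and 1032, 2097, 1988 and 1454 TPM in LT, an edgeR log2 fold change of 0.12 ± 0.28 (SE) and an adjusted p of 0.907. Near-identical tags of this kind can come from related genes, and the difference between the 2 tags was not tested.

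L8 and L9 differed by 1.67- and 1.95-fold. L8 had 2742, 3727, 5727 and 5184 TPM in LR and 753, 1539, 1737 and 1966 TPM in LT. L9 had 1594, 2901, 5072 and 3551 TPM in LR and 1370.4, 1858, 2476 and 3997 TPM in LT. In LR both tags, and also L7 and L11, were higher at 77 than at 91 dpc, while in LT L7 to L11 were all highest at 91 dpc.

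Of the abundant early tags, E7 was the most plentiful. It had 7926, 4688, 3901 and 3179 TPM in LR and 2633, 3675, 2294 and 1748 TPM in LT, 1.70-fold higher early on average. E8 had 2312, 2657, 1477 and 1270.4 TPM in LR and 1407, 2087, 1207 and 1036 TPM in LT, 1.70-fold higher early, and like E7 was separated within each breed and not across them. E9 was separated within each breed as well, at 3439.9, 3037, 2467 and 1004 TPM in LR and 679.7, 906, 652 and 255 TPM in LT.

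E10, E11 and E12 overlapped within a breed. E10 had 2268, 839, 1244 and 529 TPM in LT, where 77 dpc was above 63 dpc, and 1286, 1906, 773 and 820.0 TPM in LR. E11 had 2697, 1946, 1318 and 895 TPM in LR and 473, 329.9, 368 and 86.8 TPM in LT, again with 77 dpc above 63 dpc in LT. E12 had the largest fold of the 6, 3.20, with 1543, 367, 279.6 and 799 TPM in LR and 1382, 1918, 321 and 228 TPM in LT. Its late LR value at 91 dpc lay above the early LR value at 63 dpc, and the edgeR adjusted p was 0.282.

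**Figure D2:**
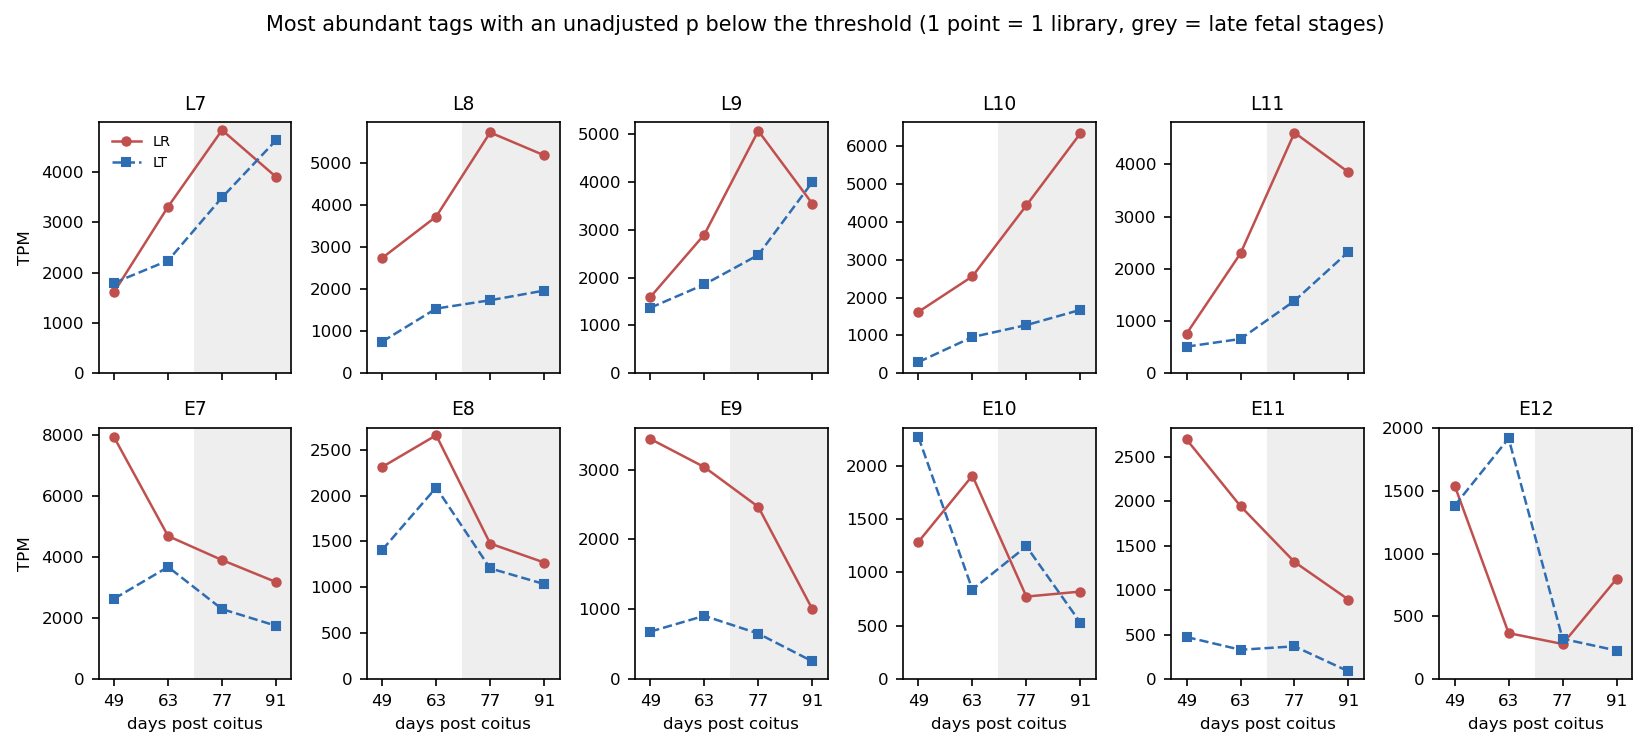
Levels of tags L7 to L11 (upper row) and E7 to E12 (lower row) in TPM on a linear axis from 0 against age in days post coitus, 1 point per library, LR as circles and LT as squares, with the late ages shaded. The 5 late tags are separated within both breeds, as are 3 of the 6 early tags.

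LR and LT share no library, so the change in one can be set beside the change in the other. Over the 6488 tested tags that averaged 20 TPM or more, the difference of mean log2(TPM + 1), late minus early, had a correlation of r = 0.586 between the breeds, and 69.7% of tags had the same sign. The points are tags, which are not independent, and the correlation is a description. Of 673 tags that differed by 2-fold or more in LR, 592 (88.0%) had the same sign in LT, and of 637 in LT, 593 (93.1%) had the same sign in LR. At 2-fold or more in both breeds there were 286 tags, 173 higher late, 106 higher early and 7 in opposite directions. With tags 1 base apart merged, the correlation over 6576 tags was 0.647. Leaving out 1 library at a time gave 0.380 without LR at 49 dpc, 0.446 without LT at 63 dpc and 0.452 to 0.629 without each of the other 6.

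At matching single steps the breeds agreed less than over the whole comparison. From 49 to 63 dpc the changes of LR and LT had r = -0.215 over the same 6488 tags, with 40.0% of signs alike. From 63 to 77 dpc r was 0.269 and from 77 to 91 dpc it was -0.0732. The LR change from 49 to 63 dpc went with the LT change one step later, from 63 to 77 dpc, at r = 0.437, and with that from 77 to 91 dpc at 0.289. The LR change from 63 to 77 dpc went with the LT change from 77 to 91 dpc at r = 0.280. In the other order, where the LT step was the earlier one, the LR change from 77 to 91 dpc had r = 0.234 with the LT change from 49 to 63 dpc and -0.228 with that from 63 to 77 dpc, and the LR change from 63 to 77 dpc had 0.00927 with the LT change from 49 to 63 dpc. Steps of the same breed share libraries and are not compared.

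LT at 63 dpc, the shallowest library, enters 2 of the 3 LT steps with opposite signs. The LT step from 49 to 63 dpc had the most tags at 2-fold or more, 23.0% of the 6488, against 6.40 to 11.9% for the LR steps and 7.57 and 9.02% for the other LT steps. Against the LT change from 49 to 77 dpc, which leaves that library out, the LR change from 49 to 63 dpc had r = 0.0858, and against the LT change from 77 to 91 dpc, which also leaves it out, 0.289. Over the whole span from 49 to 91 dpc the changes of the 2 breeds had r = 0.465. The part of that library in the step pattern was not tested further.

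In the test of single steps, edgeR called no tag at 63 against 49, 77 against 63 or 91 against 77 dpc, 0.0% of 73299 tags each. Unadjusted p-values below 0.05 were reached by 2415 tags (3.29%), 1579 (2.15%) and 1498 (2.04%) in that order. DESeq2 called 42, 14 and 37, and gave no adjusted p to 68213, 54002 and 41212 of the 73299 tags. Of the 60861 tags tested between periods, those higher at each age than at the one before numbered 4188 (6.88%) in LR and 3859 (6.34%) in LT, and 763 (1.25%) did so in both. Tags lower at each age numbered 4301 (7.07%) in LR, 3341 (5.49%) in LT and 413 (0.679%) in both, while 177 (0.291%) went up in one breed at each age and down in the other.

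**Figure D3:**
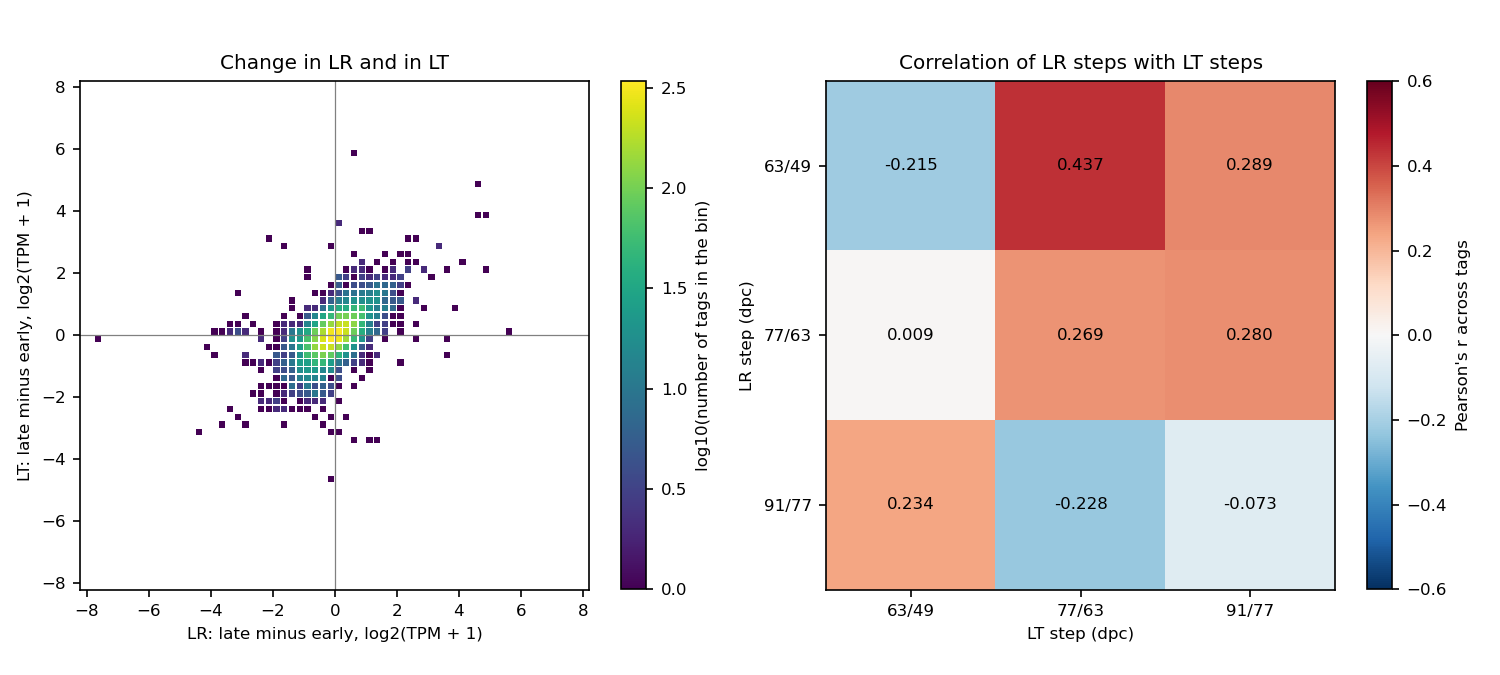
Left, change from early to late in LR (horizontal) and LT (vertical) as the difference of mean log2(TPM + 1), for 6488 tags binned and coloured by log10 of the number of tags; most tags lie near 0 and the larger changes lie along the rising diagonal. Right, Pearson's r across these tags between each LR step and each LT step, where 63/49 stands for the change from 49 to 63 dpc; the highest value, 0.437, joins LR 63/49 with LT 77/63.

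The tags separated within both breeds were then followed in 8 libraries that the comparison did not use, LR and LT at 35 dpc and at 2, 28 and 90 days after birth (dpn). The study castrated its boars after 2 weeks, so at 28 and 90 dpn age and castration cannot be told apart. The 4081 tags higher late made up 4.62% of LR and 5.16% of LT clean tags at 35 dpc, 15.8 and 15.7% at 91 dpc, 19.7 and 21.3% at 2 dpn, 33.7 and 29.1% at 28 dpn, and 43.1 and 33.0% at 90 dpn. The 3013 tags higher early made up 7.83 and 7.49% at 35 dpc and 1.89 and 1.80% at 90 dpn. In both breeds the first sum was thus lowest at 35 dpc and highest at 90 dpn. The second did not keep its order throughout, since in LR it was higher at 49 dpc, at 8.32%, than at 35 dpc, and in LT it was 3.64% at 91 dpc and 3.89% at 2 dpn.

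Of the 43.1 and 33.0% at 90 dpn, the 5 tags L7 to L11 alone held 9.14 and 4.08%. By number of tags, 1946 of the 4081 (47.7%) were higher at 2 dpn than at 35 dpc in both breeds, against 18.5% of all tested tags, and 2363 of the 3013 (78.4%) were lower, against 53.2%. At 90 dpn the shares were 36.1% against 11.9% and 86.7% against 63.3%. The late-higher tags that were lower than at 35 dpc in both breeds made up 27.4% of the list at 2 dpn, and at 28 and 90 dpn, with 40.4 and 38.6%, they outnumbered those that were higher, with 37.5 and 36.1%. The median level of the 4081 tags at 90 dpn, 3.25 TPM in LR and 3.54 TPM in LT, was close to their median at 35 dpc, 3.31 and 3.38 TPM.

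Named tags followed suit to different extents. L3 stood at 1.89 and 5.41 TPM in LR and LT at 35 dpc, 417 and 290.3 TPM at 2 dpn, and 2996 and 2957 TPM at 90 dpn. L10 went from 112 and 211 TPM at 35 dpc to 9219 and 11330.1 TPM at 2 dpn and 29304 and 18291 TPM at 90 dpn. L3 was thus highest at 90 dpn in both breeds and L10 at 90 dpn in LR, while in LT it had 25310.2 TPM at 28 dpn. By contrast P1, the near neighbour of L10, stood at 438 and 650.0 TPM at 35 dpc and at 39.4 and 36.4 TPM at 90 dpn.

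L1 and L4 had lower values at 90 dpn than at 2 dpn. L4 had 203 and 118 TPM at 2 dpn and 17.6 and 66.0 TPM at 90 dpn, its highest value in LT being that of 91 dpc, and L1 had 119 and 97.6 TPM and then 17.6 and 42.5 TPM. Among the early tags, E3 was listed at 0 in all 6 libraries after birth and had 9.68 and 8.80 TPM at 35 dpc, below its level at 49 dpc. E1 had 55.7 and 76.1 TPM at 35 dpc and was listed at 0 at 28 and 90 dpn in both breeds. E2, E6 and E8 did not keep their direction, since all 3 were higher at 2 dpn than at 35 dpc in LR and in LT. E8 had 3142 and 1430.2 TPM at 2 dpn against 435 and 401 TPM at 35 dpc, and E6 had 57.1 and 44.6 TPM against 9.92 and 3.72 TPM.

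**Figure D4:**
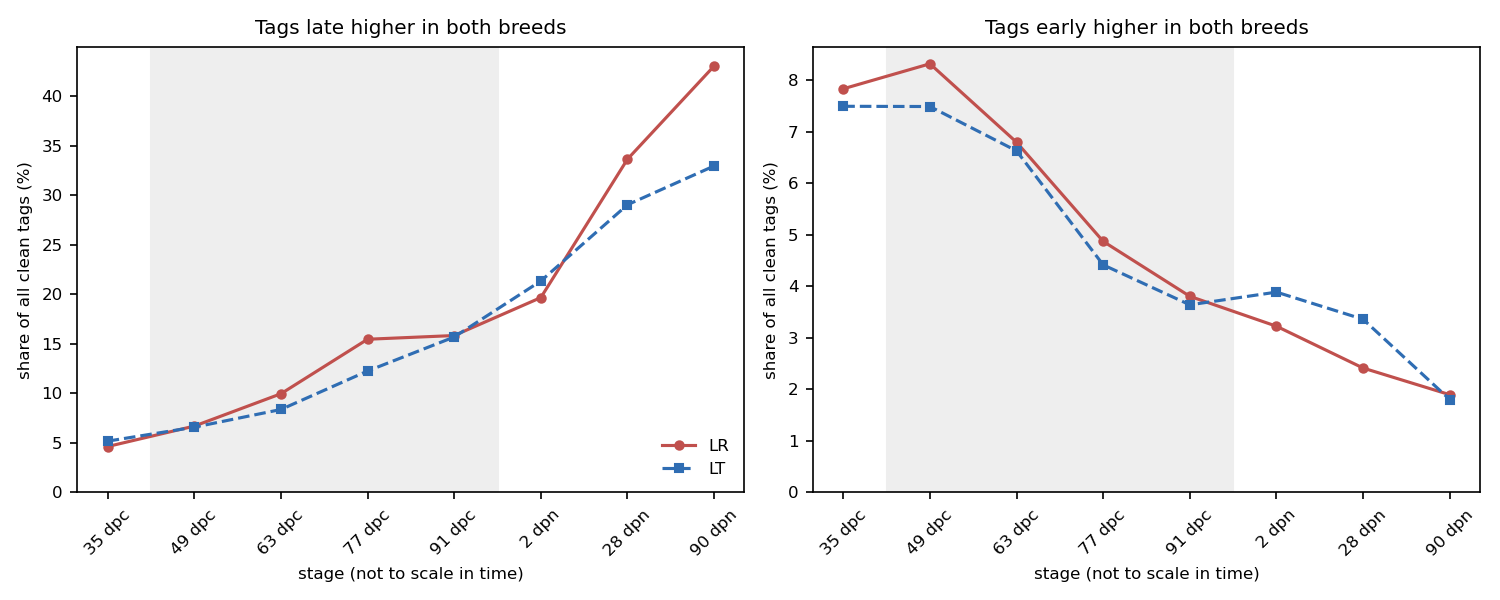
Share of all clean tags of a library, in percent, held by the 4081 tags higher late (left) and the 3013 tags higher early (right) in both breeds, at 8 stages from 35 dpc to 90 dpn in LR and LT. The shaded stages chose the tags and the others did not; the left sums run from 4.62 and 5.16% at 35 dpc to 43.1 and 33.0% at 90 dpn.

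The mean GC content of the late-higher tags was 45.9% of the 17 bases against 42.2% for early-higher and 43.3% for all tested tags, where the SD across all tested tags was 15.8. AATAAA was found in 1.62, 2.12 and 1.67% of these lists in the same order, and a further CATG in 3.06, 3.78 and 3.60%. Over whole libraries, the mean GC weighted by copies was 42.6 ± 0.276% early and 43.3 ± 0.960% late (SD, n = 4 each, 2-sided exact permutation p = 0.111 within breed). The share of the 100 most abundant tags was 17.9 ± 2.08% early and 19.3 ± 2.86% late, with p = 0.0556 by the same exact test, the smallest that its 36 assignments can give, and late was above early by 2.10 points in LR and 0.820 in LT. The number of distinct tags in draws of 2000000 clean tags had unlike signs in the breeds, with a late minus early difference of -2916.5 in LR and 23787 in LT (exact permutation p = 0.444). The shares in tags of over 100 copies, with a further CATG, with AATAAA and 1 base away from a more abundant tag had exact p from 0.722 to 1. Adjusted over the 7 measures, the smallest p was 0.389.

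Some tags were seen in 1 period alone. The rule was at least 3 counts in each library of a period and 0 in each of the other. Of the 528472 distinct tags, 95 were late only and 33 early only, and of these 1 and 3 passed the filter on low counts. Their median was 4 and 5 counts where present, so most lay close to the detectable amount. The numbers that follow were not set beside those of equally scarce tags. Of the 95, 52 were also at 0 at 35 dpc in both breeds and 33 were found at 2 dpn in both. Of the 33, 17 were found at 35 dpc in both breeds and 21 were at 0 at 2 dpn in both. The late-only tag with the most counts was S1, and the early-only tag with the most counts after E3 was S3.
S1: CATGatcgagggcatcctcta
S3: CATGggattgtgcgtggcacg

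S1 had 3, 8, 4 and 44 counts in LR at 77 and 91 dpc and LT at 77 and 91 dpc, or 0.812 and 1.90 TPM in LR and 0.855 and 8.27 TPM in LT, at least 3.88-fold higher late when set against the detectable amount in the early libraries. After birth it was found in all 6 libraries, at 20.9 and 6.11 TPM at 2 dpn and 76.5 and 98.2 TPM at 90 dpn in LR and LT. S3 had 15.7 and 8.92 TPM in early LR and 1.57 and 7.26 TPM in early LT, at least 12.3-fold higher early when set against the detectable amount late, and it was found at 2 dpn in LT, at 4.76 TPM.

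Whether the change from early to late differed between the breeds was tested as an interaction. Here edgeR called no tag of 73299 (0.0%), with 2100 (2.86%) at an unadjusted p below 0.05. DESeq2 called 14 and gave no adjusted p to 45475. The tags with the smallest p in each direction included B1, B4 and B6. They are shown with the tag 1 base away that had the most counts, N1, N4 and N6. In each pair the B tag was listed at 0 in both late libraries of 1 breed, where the N tag was present.
B1: CATGtgcatttttgtttgttt
N1: CATGtgcatttttgtttgctt
B4: CATGagatccagagtgacgtc
N4: CATGagatccagagtgatgtc
B6: CATGatttactgcacattgat
N6: CATGatttacttcacattgat

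B1 had 133, 266, 0 and 0 TPM in LR and 244, 215, 289.5 and 149 TPM in LT, and so was listed at 0 in both late LR libraries. Its edgeR adjusted p for the interaction was 0.129, the smallest of these tags, and no fold is given because it would depend on the prior count. N1 differs from B1 by T19C, counted from the 5′ end with the base of B1 first, and had 32.7, 0.637, 364 and 320.0 TPM in LR. In the late LR libraries B1 had 0 counts and N1 had 2694, while in the late LT libraries B1 had 2149 and N1 had 3. At 35 dpc LR already held more N1 than B1, 56.9 against 37.3 TPM. At 2, 28 and 90 dpn in LR, B1 was listed at 0 and N1 had 21.5, 3.78 and 2.32 TPM.

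B4 and B6 were listed at 0 in both late LT libraries. Unlike N1 in LR, N4 and N6 were already the higher of their pair in LT at 49 and 63 dpc. B4 had 52.0, 50.6, 73.9 and 57.9 TPM in LR and 7.09, 4.59, 0 and 0 TPM in LT, and N4, with C18T, was listed at 0 in LR and had 20.1, 11.1, 19.5 and 26.9 TPM in LT. B6 had 25.3, 49.5, 62.3 and 45.3 TPM in LR and 6.50, 11.5, 0 and 0 TPM in LT, and N6, with G12T, was listed at 0 in LR and had 13.4, 24.5, 50.5 and 35.3 TPM in LT. Summed with all tags 1 base apart, the 3 tags had late to early log2 fold changes over both breeds of 0.29, 0.24 and 0.59. Their edgeR adjusted p were 0.725, 0.755 and 0.44. These values do not measure whether the change differed between the breeds. The interaction test on merged tags called 0 of 69711. Since it called no unmerged tag either, that count cannot show an effect of merging. The genotypes of the pooled animals were not measured.

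The remaining interaction tags were lower in level. B2 had 2.91, 4.04, 1.89 and 2.85 TPM in LR and 0, 0, 10.9 and 6.20 TPM in LT, and B3 had 4.48, 7.01, 0 and 0 TPM in LR and 0, 0, 1.497 and 3.57 TPM in LT. In both, LR was lower late and LT higher late. B2 was also present in LT at 35 dpc, at 12.2 TPM. Merged with tags 1 base away, B2 had 5, 9, 51 and 37 counts in LT from 49 to 91 dpc. B5 had 5.38, 10.4, 11.1 and 15.0 TPM in LR and 6.69, 6.88, 0 and 0 TPM in LT and merged into a more abundant tag, N5, that differs by G7A. The edgeR adjusted interaction p of B2 to B6 ran from 0.658 to 1.

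**Figure D5:**
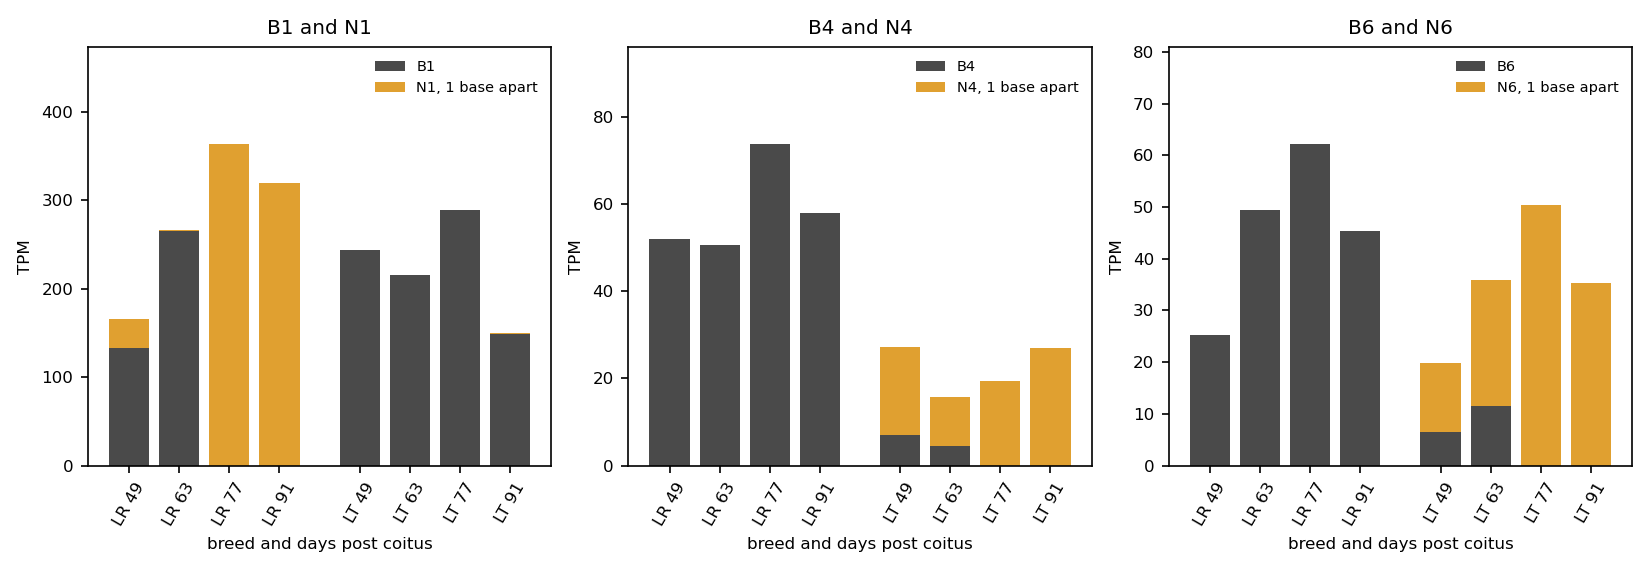
Levels in TPM (bars stacked from 0) of tags B1, B4 and B6 and of the tag 1 base away from each, N1, N4 and N6, in the 8 libraries ordered by breed and age. In LR at 77 and 91 dpc, B1 is listed at 0 and N1 is present. In LT at those ages, B4 and B6 are listed at 0 and N4 and N6 are present.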

How the data were processed

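Clean DGE tags of longissimus muscle were analysed in the 8 libraries of 49, 63, 77 and 91 dpc, each 1 pool of 3 fetuses, grouped by the breed and stage in their labels. The authors filtered out adaptors, reads of low quality and tags seen once, and deposited for each library the raw count of each distinct tag, which had not been normalised. Beside it the authors deposited the same count as TPM, per 1000000 clean tags of the library. Recomputing TPM from the counts left 0 values that differed beyond rounding. Bowtie 0.12.3 and the build NCBI36 are named in the submitters' notes. The mapping of tags to genes by the authors was not used, and the comparison planned for genes was not made because the reference used held no transcript sequence.

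Counts of all distinct tags, a tag not listed taken as 0, were tested with edgeR 4.0.16 (R 4.3.3) by glmQLFit and glmQLFTest, with TMM scaling, filterByExpr, breed as block and Benjamini-Hochberg adjusted p below 0.05. The interaction of breed and period and the steps between adjacent stages were fitted on the same libraries. Library measures were compared by 2-sided exact permutation within breed. Fold changes of means were taken on TPM, and changes per breed on log2(TPM + 1). The SE printed with an edgeR log2 fold change was not estimated by the fit. It was back-calculated as the absolute change divided by the square root of the F statistic. The scripts were tested on simulated data. DESeq2 1.42.0, total scaling, no filter, no block, single breeds, the outer stages, merged neighbours, a covariate for tags holding another CATG and leaving out each library were the alternatives.

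The libraries, lists and tests were chosen with earlier results of these data known. The rule for named tags asked for called tags, of which there were 0, and for the 3 interaction tags with the smallest p in each direction, which are B1 to B6. The other tags were chosen after their values were seen: per direction the 6 with the smallest p, and the 6 most abundant with an unadjusted p below 0.05. One of the latter is not reported here. S1 and S3 had the most counts among tags of 1 period beside E3, and P1 and N1 to N6 are neighbours of named tags. Totals of 2615631 to 5322022 clean tags make 3 counts worth 0.564 to 1.15 TPM, which covers counting error only.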

Additional observations from a re-analysis of the deposited data

Results flagged for a closer look

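In 3 of 58 groups of 4 libraries tested for named tags, 1 library lay apart from the other 3 beyond Dixon's 95% critical value, and chance gives about 1 such group in 20. L11 had 2296 TPM in LR at 63 dpc, above the other 3 early libraries, which had 510.4 to 757.9 TPM. E5 had 8.27 TPM in LT at 49 dpc, against 4.46 to 4.97 TPM in the other 3 early libraries. E12 had 799 TPM in LR at 91 dpc, against 228 to 321 TPM in the other 3 late libraries.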

How the results depend on the processing

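The number of tags called late against early was 0 with edgeR under total scaling, no breed block, LR alone, LT alone, merged neighbours and the further CATG covariate. It was 862 with DESeq2, of 36082 tags given an adjusted p, and 1452 of 528472 without the low-count filter. It was 2 of 59713 with 49 and 91 dpc alone. The linear trend in days called 962 of 60861, and 1233 of 58529 on merged tags, both chosen after seeing the data. Leaving out 1 library gave 0 to 3 tags, with 3 without LT at 77 dpc. The 23 tags L1 to L11 and E1 to E12 kept their direction under all 19 alternatives, with 17 past the threshold by DESeq2 and 14 by the trend. The alternatives refit the counts by which these tags were picked, so their direction was largely fixed by that choice.

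The interaction called 14 tags by DESeq2, 108 without the filter and 0 to 5 when 1 library was left out, with 5 without LR at 49 dpc, 3 without LT at 77 dpc and 1 without LT at 91 dpc. Steps 63/49, 77/63 and 91/77 dpc called 42, 14 and 37 by DESeq2 and 174, 167 and 158 without the filter. The fits without the filter, of the interaction and of each step, tested 528472 tags. The step 77/63 called 1 under total scaling and 1 when fitted alone. The correlation between LR and LT changes was 0.435 over all tested tags, 0.524 at 5 TPM or more and 0.647 on merged tags, and 0.380 to 0.629 leaving out 1 library.

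For library measures, leaving out 1 library gave late minus early differences of either sign. They ran from -1104 to 22670.1 for distinct tags, from -2.99 to 2.92 points for the share in tags of over 100 copies, from -0.252 to 0.131 for a further CATG and from -0.377 to 0.249 for AATAAA. For the 100 most abundant tags they ran from 0.416 to 2.34 and for GC from 0.358 to 1.13, without a change of sign. Each difference was taken between plain means of the libraries left, so dropping a library also changed the balance of the breeds. The breeds differed in level, for instance 63.4 to 65.6% in LR and 47.9 to 57.5% in LT for tags of over 100 copies. How far the difference between periods leans on single libraries cannot be read from these ranges. Each library was a pool of its own breed and stage, so libraries could not be paired by animal. Breed served as the block. The alternatives planned for genes were not run, since tags were not matched to transcripts. The depth limits low tags: 3 counts were worth 0.564 to 1.15 TPM, and tags of 1 copy had been removed.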
